A study of Mus musculus with 6 samples.

Results

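Cadherins, integrins and axon-guidance receptors hosted 109 of the 11171 circular RNAs (circRNAs) measured in mouse cortex. A circRNA was taken when its only listed host gene carried a symbol of the Cdh, Pcdh, Fat, Celsr, Itga, Itgb, Epha, Ephb, Sema, Plxna, Plxnb, Plxnc, Plxnd, Robo, Slit or Unc5 families. Gene names thus set the members, although the families were chosen with earlier results of these data known. The 109 circRNAs came from 37 host genes in 12 of the 16 families, and 10273 circRNAs in all had 1 listed host. No circRNA with 1 host was listed for a Celsr, Itgb, Plxnb or Plxnd gene. One further circRNA, listed in Control 3 alone, named Itgam beside a second host and was left out.

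The 6 libraries held cortical RNA of male C57BL/6 mice (C57BL/6J in the methods of the study), 6 weeks old, with 3 mice in the Control group and 3 in the temporal lobe epilepsy (TLE) group and 1 library for each mouse. TLE mice received scopolamine methyl bromide and then pilocarpine, which causes Status Epilepticus (SE), were later given diazepam and were sampled 24 h after SE, whereas Control mice received saline in place of both agents. The samples were bulk cortex depleted of ribosomal RNA, and the model at this time shows the acute response and not spontaneous seizures. Levels are in SRPBM, the reads across a back-splice junction scaled to the mapped reads of the library by the authors.

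A circRNA forms when the end of an exon is joined back to the start of the same or an earlier exon, and the read that crosses this junction identifies it. Classical cadherins and protocadherins hold cells together through their extracellular repeats, integrins bind cells to the matrix, and Eph receptors, Robo, plexins and Unc5 steer growing axons when they meet ephrins, Slits, semaphorins or netrins. In the adult cortex many of the same molecules shape synapses.

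The libraries held 32504 to 56516 junction reads, and 404 to 685 of these in each library belonged to the 109 circRNAs. Their summed level was 4461, 3756 and 4798 SRPBM in the Control libraries and 4328, 4997 and 5927 SRPBM in the TLE libraries. Those sums made up 1.13% to 1.33% of all SRPBM in a library, and the ranges of the groups overlapped. Between 45 and 55 of the circRNAs were detected in each library. Of the cell type marker genes examined, 6 of 10 neuronal markers hosted circRNAs, with summed levels of 2384 to 2891 SRPBM in Control and 3058 to 3866 SRPBM in TLE libraries. Those neuronal sums did not overlap between the groups, and among all host genes tested 10.7% had each TLE library above each Control library. Total SRPBM was 409021 in TLE 2 and 489032 in TLE 3, against at most 360023 in a Control library. The neuronal sums were not rescaled to these totals, and their part in the results on adhesion genes was not tested. One astrocyte marker of 6, Slc1a2, hosted circRNAs (0 to 17.2 SRPBM in Control, 0 to 34.6 SRPBM in TLE libraries), and no marker of oligodendrocytes, microglia, endothelial and mural cells or leukocytes did.

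A few circRNAs carried most of the signal. The circRNAs were supported by 3157 junction reads over the 6 libraries, of which a single Fat3 circRNA held 34.3%, the first 3 held 52.5% and the first 20 held 81.0%. By family, the 5 Fat circRNAs held 1178 reads, the 35 Epha circRNAs 689, the 7 Robo circRNAs 491, the 20 Cdh circRNAs 326, the 15 Pcdh circRNAs 187 and the 6 Itga circRNAs 105. The single Ephb circRNA held 65 reads, and the Plxna, Slit, Unc5, Sema and Plxnc circRNAs held between 5 and 32 reads a family. Of the 109 circRNAs, 68 had at most 10 reads, 44 were listed in 1 library alone and 20 were listed in all 6. The other circRNAs with 1 host were listed in 1 library in 44.2% and in all 6 in 14.5% of cases, against 40.4% and 18.3% here.

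**Figure D1:**
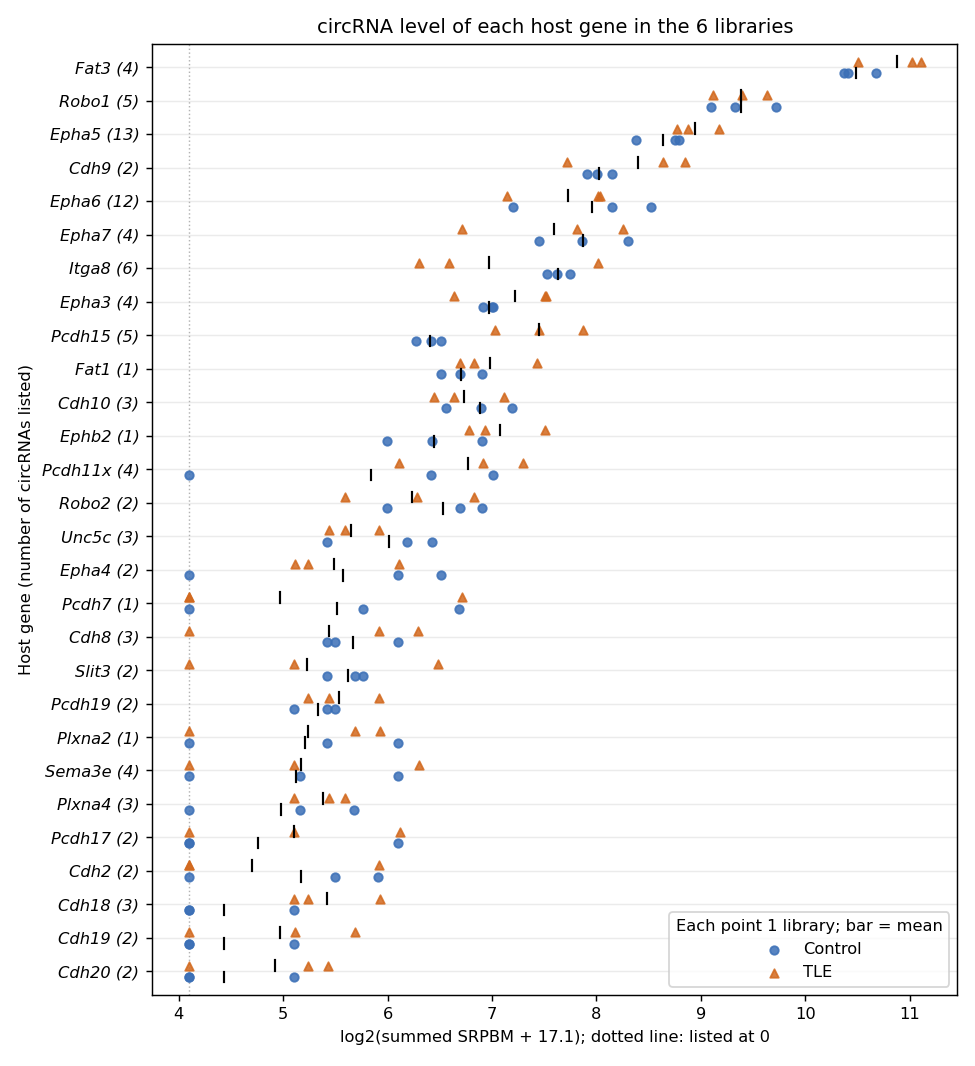
Level of the 28 host genes above 0 in at least 3 libraries, as log2(summed SRPBM + 17.1) on the horizontal axis, with 1 point per library (blue circles Control, orange triangles TLE) and a bar at each group mean. Fat3, Robo1 and Epha5 led in both groups, and the groups were apart in Pcdh15 and Cdh18 alone. For Cdh18 the highest Control library and the lowest TLE library held 2 reads each.

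The first question was whether these circRNAs differed between TLE and Control mice. Little separated the groups: 1 of the 46 circRNAs tested and none of the 28 host genes tested passed the rule used here. The rule asks for a log2 fold change of 1.5 or more, up or down, and an unadjusted p under 0.05. The study set these limits on DESeq2 results, whereas here they were set on a limma fit that understates the change of low circRNAs. The background was 1.57% of all 4271 circRNAs tested (67 circRNAs) and 1.9% of all 2157 host genes tested (41 genes), so the member share of 2.17% was close to the background. When the limit on the fold change was lowered to 1 on the log2 scale, 1 of the 46 circRNAs (background 4.59% of all) and 1 of the 28 hosts, Pcdh15 (background 5.05%), passed. No adjusted p was under 0.05 for any circRNA or host gene in the limma fit, and 1 member circRNA and 1 member host had an unadjusted p under 0.05. The 63 circRNAs listed in fewer than 3 libraries were not tested. They held at most 8 reads each and 217 reads together, and the 46 tested held 93.1% of the reads, with a median of 21 reads each.

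The direction of the fold changes was near that of all circRNAs. The median log2 fold change, TLE against Control, was 0.29 over the 46 members and 0.17 over all 4271 circRNAs tested, and 30 of the 46 (65.2%) lay above 0, against 60.5% of all. With the total SRPBM of each library set to one value, these medians were 0.10 and 0.01. Over host genes the medians were 0.12 for the 28 members and 0.20 for all 2157. Each TLE library lay above each Control library in 5 member circRNAs (10.9%; background 8.94% of all tested) and below each of them in 1 (2.17%; background 2.11%). Among the hosts, 2 of 28 (7.14%; background 10.7%) were above and 0 (background 1.95%) below. After rescaling, 3 circRNAs were above and 2 below. The share over all circRNAs tested was not computed for this setting, so these counts cannot be set against a background. Of the 5 above before rescaling, one of Pcdh15 (mmu_circ_0000346) and one of Fat3 (mmu_circ_0010333) still had groups apart, and the others overlapped. An Epha3 circRNA (mmu_circ_0003392) was newly above and a Cdh10 circRNA (mmu_circ_0002743) newly below. In bulk cortex, fewer cells of a type and less RNA per cell cannot be told apart.

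**Figure D2:**
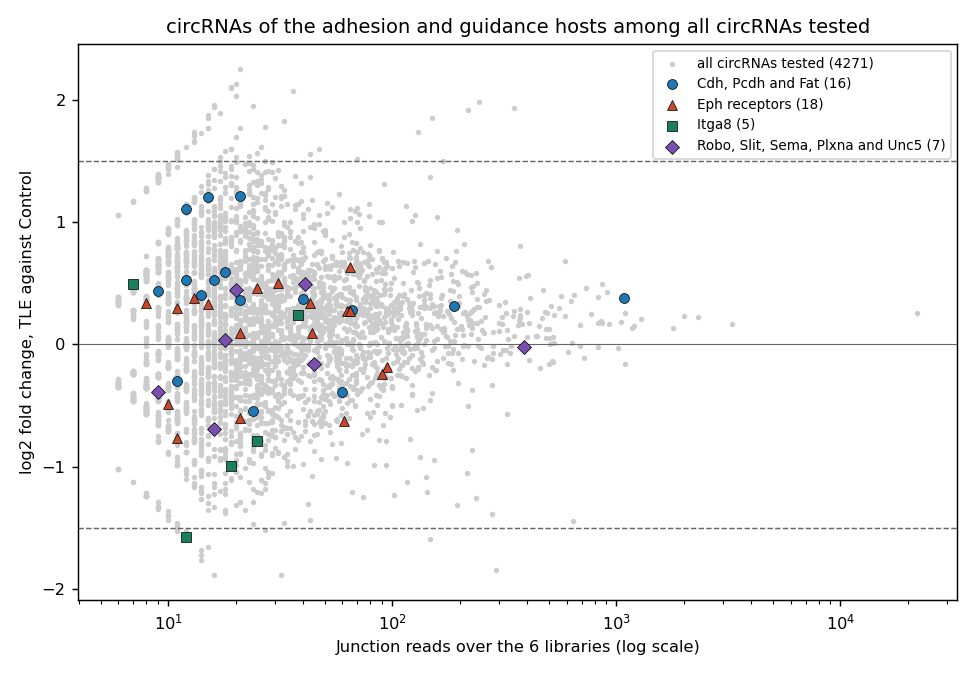
Log2 fold change, TLE against Control, of the 46 circRNAs of adhesion and guidance hosts (coloured, by group of families) among all 4271 circRNAs tested (grey), against the junction reads over the 6 libraries on a log axis. Dashed lines mark 1.5 in either direction, and only the Itga8 circRNA at -1.57 lies past them among the members.

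Fat3 and Fat1 are giant atypical cadherins that act in planar cell polarity and in shaping neuronal arbours. Each made a circRNA from exon 2 alone, the exon that holds the start codon. The Fat3 circRNA mmu_circ_0010335 (chr9:16374949-16378254, minus strand, mm10) is one exon of 3306 bases that covers codons 1 to 1093 of 4551, and the Fat1 circRNA mmu_circ_0009905 (chr8:44950196-44953481, plus strand) is one exon of 3286 bases over codons 1 to 1090 of 4590. The exons are 62.8% identical over 3217 aligned bases. The 30 bases across each junction are given below, because they are what a read must cross. They were assembled from the GENCODE M21 transcripts (GRCm38), with the end of the last exon in lower case and the start of the first exon in capitals.
Fat3 exon 2: tagatgatgagagtgGACGGACATGTGATA
Fat1 exon 2: tagatgaagaaacagGTGGCCAGGAGTTAA

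Position by position, 14 of the 30 junction bases are identical between the paralogs. The Fat3 circRNA ranked 11th of all circRNAs by mean level, with 1290.4, 1292 and 1602 SRPBM in the Control libraries and 1405, 1973 and 2137 SRPBM in the TLE libraries. It was abundant in each library, and the lowest TLE library lay among the Control libraries. The log2 fold change was 0.38 (SE 0.21, adjusted p = 0.922, limma). It was 0.15 after rescaling and 0.26 to 0.56 with single libraries left out. The other Fat3 circRNAs added little, since the exon 2 circRNA held 97.5% of the 1112 reads of the gene. One of them, exon 3 alone (mmu_circ_0010333, 315 bases), had 17.1, 18.6 and 17.2 SRPBM in the Control libraries and 31.0, 26.3 and 51.9 SRPBM in the TLE libraries. Its groups did not overlap, yet the highest Control value and the lowest TLE value were 2 and 3 reads, and the log2 fold change was 0.59 (SE 0.59, adjusted p = 0.922, limma). Fat1 had 103, 74.4 and 86.1 SRPBM in the Control libraries and 155, 96.4 and 86.5 SRPBM in the TLE libraries, with overlapping groups and a log2 fold change of 0.28 (SE 0.38, adjusted p = 0.922, limma).

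The 10 Cdh genes hosted 20 circRNAs, and those of Cdh9 and Cdh10 held most of the reads. Both are type II cadherins, and Cdh9 is known for its part in hippocampal synapse formation. The Cdh9 circRNA mmu_circ_0002739 (chr15:16823159-16832278, plus strand) joins the end of exon 7 to the start of exon 3 and covers codons 76 to 417 of 788, within the extracellular part.
Cdh9 exons 3 to 7: gaacaacataataaaCTTCACACTGACCAA

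It had 239, 223 and 267 SRPBM in the Control libraries and 424, 175 and 381 SRPBM in the TLE libraries, so that TLE 2 was the lowest and TLE 1 the highest of the 6 libraries, at a log2 fold change of 0.32 (SE 0.32, adjusted p = 0.922, limma). This value was 0.10 after rescaling, 0.09 without TLE replicate 1, 0.17 without TLE replicate 3 and 0.69 without TLE replicate 2. The main Cdh10 circRNA, exons 3 to 5, had 76.9, 102 and 129 SRPBM in the Control libraries and 51.6, 70.1 and 104 SRPBM in the TLE libraries, and these groups overlapped too (log2 fold change -0.39, SE 0.40). After rescaling, its TLE libraries all lay below its Control libraries, a setting for which the share over all circRNAs was not computed. Together these circRNAs of Cdh9 and Cdh10 held 248 of the 326 Cdh reads. The remaining Cdh hosts, among them Cdh2 (N-cadherin), Cdh8, Cdh18, Cdh19 and Cdh20, had at most 24 reads a gene over the 6 libraries. Cdh18 had 0, 0 and 17.2 SRPBM in the Control libraries and 20.7, 43.8 and 17.3 SRPBM in the TLE libraries. Its groups did not overlap, at 2 reads each in the highest Control and the lowest TLE library, and the log2 fold change was 0.99 (SE 0.62, adjusted p = 0.854, limma). Cdh18 met the filter mainly through TLE libraries, so the filter itself favoured a higher TLE level. Whether its groups stayed apart after rescaling was not tested. Cdh19 had 0, 0 and 17.2 SRPBM in the Control libraries and 0, 17.5 and 34.6 SRPBM in the TLE libraries, and Cdh2 had 0, 27.9 and 43.1 SRPBM in the Control libraries and 0, 0 and 43.3 SRPBM in the TLE libraries. Both overlapped between the groups, with log2 fold changes of 0.54 and -0.46.

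Protocadherin circRNAs mostly had higher means in TLE than in Control mice, at low read numbers. Of the 9 Pcdh circRNAs tested, 8 had a log2 fold change above 0 and the median was 0.43, beside 60.5% above 0 and a median of 0.17 over all circRNAs tested, and none passed the rule. The Pcdh median was 0.37 after rescaling, and 0.21 with 7 of 9 above 0 without Control replicate 3. With no filter on low values, 11 of 15 were above 0 at a median of 0.37, beside a median of 0.18 over all circRNAs. Most of the 8 came from Pcdh15 and Pcdh11x, and circRNAs of 1 host are not independent. Of these, mmu_circ_0000350 and mmu_circ_0010915 met the filter mainly through TLE libraries. Pcdh15, known as a tip-link protein of sensory hair cells, had 5 circRNAs with 77 reads. Summed over the gene it had 68.4, 74.4 and 60.3 SRPBM in the Control libraries and 114, 158 and 216 SRPBM in the TLE libraries. All 3 TLE libraries lay above all 3 Control libraries, at 67.7 ± 7.07 SRPBM in Control against 163 ± 51.5 SRPBM in TLE mice (SD, n = 3 each). The log2 fold change was 1.05 (SE 0.41, adjusted p = 0.766, limma), the smallest adjusted p of any of the 28 hosts.

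Within Pcdh15 the circRNAs differed in how far the groups were apart. The most abundant, exons 6 to 8 (mmu_circ_0000349, chr10:74210367-74230380, plus strand), had 34.2, 55.8 and 60.3 SRPBM in the Control libraries and 51.6, 87.7 and 69.2 SRPBM in the TLE libraries, and its groups overlapped, with a log2 fold change of 0.37 (SE 0.45, adjusted p = 0.922, limma). A second, mmu_circ_0000346 (chr10:73483861-73490249, plus strand), whose start lies on an exon boundary of Pcdh15 and whose end does not, had 17.1, 18.6 and 0 SRPBM in the Control libraries and 31.0, 35.1 and 86.5 SRPBM in the TLE libraries. The circRNA of exons 22 to 25 (mmu_circ_0000350) had 17.1, 0 and 0 SRPBM in the Control libraries and 31.0, 17.5 and 43.3 SRPBM in the TLE libraries. In both of these the groups did not overlap, and no Control library held over 2 reads of either, and TLE 2 also held 2 reads of mmu_circ_0000350. Their log2 fold changes were 1.21 (SE 0.63, adjusted p = 0.922, limma) and 1.11 (SE 0.61, adjusted p = 0.922, limma).

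Pcdh11x, an X-linked delta-protocadherin of the brain, made circRNAs from exon 2, from exon 3 and from both. The circRNA of exons 2 and 3 (mmu_circ_0010915, 3080 bases, start codon included) had 25.6, 0 and 0 SRPBM in the Control libraries and 41.3, 43.8 and 26.0 SRPBM in the TLE libraries. The lowest TLE library held 3 reads and so did the highest Control library. The groups were apart by less than 1 read, and the log2 fold change was 1.21 (SE 0.64, adjusted p = 0.922, limma). Summed over its 4 circRNAs the gene had 68.4, 112 and 0 SRPBM in the Control libraries and 103, 140.3 and 51.9 SRPBM in the TLE libraries, with overlapping groups and a log2 fold change of 0.93. Without Control replicate 3, the library at 0, this value was 0.060, and without Control replicate 2 it was 1.52. Pcdh7 was at 0 in libraries of both groups, with 85.5, 37.2 and 0 SRPBM in the Control libraries and 0, 87.7 and 0 SRPBM in the TLE libraries, and its log2 fold change of -0.55 had an SE of 0.80. Pcdh9, Pcdh17 and Pcdh19 had 2 to 18 reads a gene, and no clustered protocadherin was the only host of a circRNA.

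**Figure D3:**
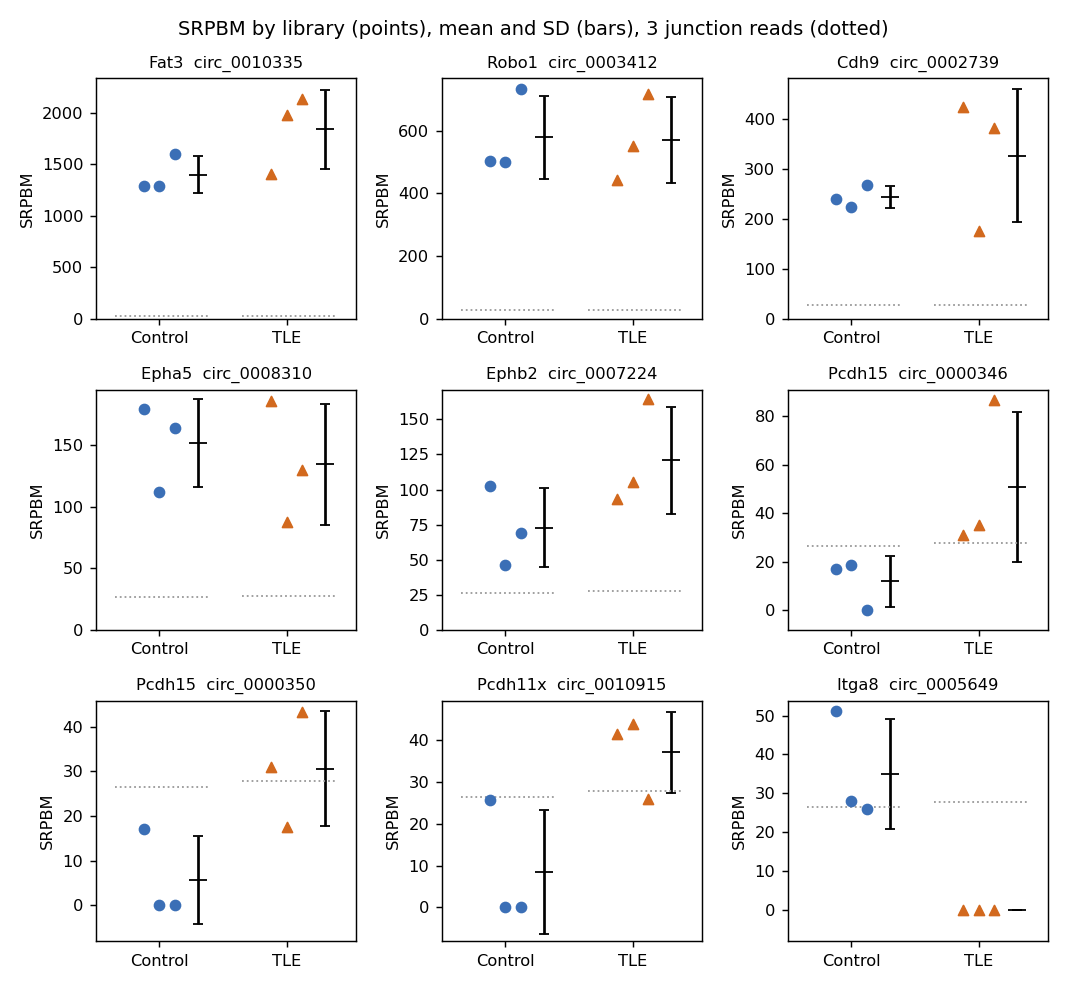
SRPBM of 9 circRNAs in each library (blue circles Control, orange triangles TLE), with the group mean and SD beside the points and a dotted line at the value of 3 junction reads. Fat3, Robo1, Cdh9, Epha5 and Ephb2 overlap between the groups, whereas the Pcdh15, Pcdh11x and Itga8 circRNAs shown in the last 4 panels do not and lie near or below 3 reads in at least 1 group.

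Itga8 was the only integrin host, and the only member circRNA past the rule was one of its 6. Integrin alpha 8 pairs with beta 1 and binds matrix ligands such as nephronectin. The circRNA mmu_circ_0005649 (chr2:12174153-12182751, minus strand) joins the end of exon 23 to the start of exon 21 and holds 254 bases over codons 706 to 790 of 1062.
Itga8 exons 21 to 23: ggtcgaaatcagaggGGACTGAGGCCCCTG

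It had 51.3, 27.9 and 25.8 SRPBM in the Control libraries and 0 in all 3 TLE libraries, or 6, 3 and 3 reads against none. The log2 fold change was -1.57 (SE 0.57, adjusted p = 0.838, limma). This circRNA was tested only because all 3 Control libraries were above 0, so the filter itself favoured a lower TLE level. Since each TLE library was at 0, a limit of 3 reads in each TLE library puts the Control mean at least 1.26-fold higher. The other Itga8 circRNAs did not move as one. Exons 21 to 25 (mmu_circ_0005647), which start at the same exon, had 34.2, 27.9 and 51.7 SRPBM in the Control libraries and 0, 0 and 51.9 SRPBM in the TLE libraries, and exons 3 to 13 (mmu_circ_0005653) had 17.1, 65.1 and 43.1 SRPBM in the Control libraries and 0, 0 and 95.2 SRPBM in the TLE libraries. Both were at 0 in TLE 1 and TLE 2 and at their highest in TLE 3, so their groups overlapped, with log2 fold changes of -0.99 and -0.79. Exons 7 to 11 (mmu_circ_0005654), the most abundant of the gene, had 42.7, 46.5 and 60.3 SRPBM in the Control libraries and 41.3, 78.9 and 69.2 SRPBM in the TLE libraries. This circRNA was present in each library, and its log2 fold change was 0.24 (SE 0.46, adjusted p = 0.925, limma).

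Summed over the gene, Itga8 had 179, 167 and 198 SRPBM in the Control libraries and 62.0, 78.9 and 242 SRPBM in the TLE libraries. TLE 1 and TLE 2 lay below all Control libraries and TLE 3 above them. The log2 fold change was -0.66 (SE 0.43, adjusted p = 0.854, limma). Without TLE replicate 3, 3 circRNAs passed the rule, namely mmu_circ_0005649 and the Itga8 circRNAs of exons 21 to 25 and 3 to 13, at -1.66 and -1.69. The number tested was then 39 members and 3507 circRNAs in all, of which 88 (2.51%) passed. Without Control replicate 2 or Control replicate 3 no member passed, beside 2.58% and 2.95% of all circRNAs tested. The circRNA mmu_circ_0005649 was then above 0 in only 2 libraries and was no longer tested. Without Control replicate 1 it was likewise not tested and the Pcdh11x circRNA of exons 2 and 3 passed instead, at 1.65. In that setting 105 of all 3722 circRNAs tested (2.82%) passed. The Pcdh11x circRNA was then at 0 in each Control library left and was tested only through TLE libraries. The filter itself thus favoured a higher TLE level.

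Eph receptors made the most circRNAs, 36 from 6 genes with 754 reads, and paralogs repeatedly used the same exons. These receptor tyrosine kinases bind ephrins with the first domains of their extracellular part and carry the kinase behind the membrane. Exon 3 alone formed a circRNA in Epha3 (661 bases), Epha5 (664 bases) and Epha6 (664 bases), with 216 reads. Exons 2 and 3 formed one in Epha5, Epha6, Epha7 and Ephb2 (729 to 750 bases), with 154 reads. Exons 4 and 5 formed one in Epha3, Epha5, Epha6 and Epha7, each of 492 bases, with 177 reads. These 11 circRNAs, picked for their exons after the data had been seen, held 72.5% of the Eph reads. Less abundant pairs were exons 5 to 8 and 6 to 8 in Epha4 and Epha5 and exons 8 to 11 in Epha3 and Epha6. Exons are numbered in the annotated transcript that holds most circRNAs of the gene.

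**Figure D4:**
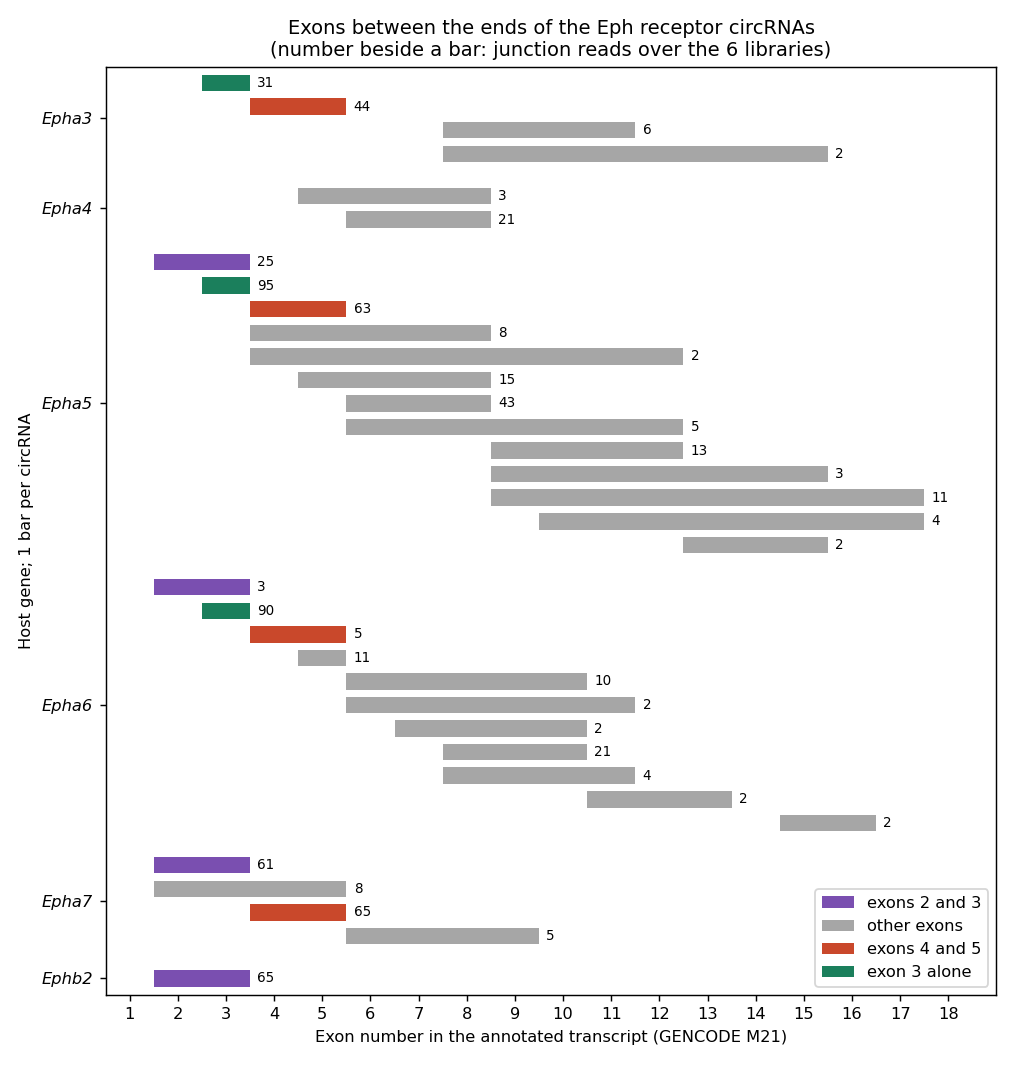
Exons enclosed by the 35 Eph receptor circRNAs whose ends both lie on exon boundaries, with the exon number on the horizontal axis, 1 bar per circRNA grouped by gene and the junction reads over the 6 libraries beside each bar. Coloured bars mark exon 3 alone, exons 2 and 3, and exons 4 and 5, which recur in 3, 4 and 4 genes.

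The junctions of the circRNAs of exon 3 alone, all on the minus strand, show the shared start and end (lower case the end, capitals the start of the exon).
Epha3 exon 3: gtttcatatgccaagTGGGAAGAGATCAGT
Epha5 exon 3: atggtacctgccaagTGGGAAGAGATTGGT
Epha6 exon 3: agggttcttgccatgTGGGATGCCATTACT
Those of exons 2 and 3 follow, with the end of exon 3 before the start of exon 2.
Epha5 exons 2 to 3: atggtacctgccaagTGAATTTGTTGGATT
Epha6 exons 2 to 3: agggttcttgccatgTTGTGTTGCTTGATA
Epha7 exons 2 to 3: gggacacttgcgaacTACTATTACTGGACT
Ephb2 exons 2 to 3: gcaccgtctgccgagAAACCCTGATGGACT
Those of exons 4 and 5 come from the part that follows, with the end of exon 5 before the start of exon 4.
Epha3 exons 4 to 5: caactaatcaggctgCTTGTCGACCAGGCT
Epha5 exons 4 to 5: ccacgaatcaagcagTGTGCAGACCTGGGT
Epha6 exons 4 to 5: ctacagatcacgatgCTTGCAGACCAGGAT
Epha7 exons 4 to 5: ccaccggtcaagcagCCTGTGGCCGCAGGT

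Between paralogs, 16 to 22 of the 30 junction bases are identical for exon 3, 10 to 19 for exons 2 and 3, and 16 to 22 for exons 4 and 5. Over the whole enclosed sequence, identity is 69.7% to 72.5%, 61.8% to 70.5% and 62.4% to 66.0%. The exon 3 circRNA of Epha5 covers codons 85 to 306 of 1040 and that of Epha6 codons 151 to 372 of 1130, and the circRNA of exons 4 and 5 of Epha5 continues from codon 306 to 470.

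The levels of the shared circRNAs were close between some paralogs and far apart between others. For exon 3 alone, Epha5 (mmu_circ_0008310, chr5:84331228-84331891, minus strand) had 179, 112 and 164 SRPBM in the Control libraries and 186, 87.7 and 129.8 SRPBM in the TLE libraries. Epha6 (mmu_circ_0003382, chr16:60424721-60425384, minus strand) had 179, 65.1 and 207 SRPBM in the Control libraries and 82.6, 132 and 129.8 SRPBM in the TLE libraries, and Epha3 had 31 reads in all against 95 and 90 for these. For exons 4 and 5, Epha7 had 65, Epha5 63, Epha3 44 and Epha6 5 reads, the last of them in TLE 3 alone. For exons 2 and 3, Ephb2 had 65, Epha7 61, Epha5 25 and Epha6 3 reads. Epha6 thus used exon 3 alone at a level near that of Epha5 and the other plans little.

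No Eph circRNA passed the rule. Of the 18 tested, the exon 3 circRNA of Epha5 had a log2 fold change of -0.18 (SE 0.35, adjusted p = 0.925, limma). The Ephb2 circRNA, the highest of the 18, had 103, 46.5 and 68.9 SRPBM in the Control libraries and 93.0, 105 and 164 SRPBM in the TLE libraries. TLE 3 was the highest library, the groups overlapped, and the log2 fold change was 0.63 (SE 0.40, adjusted p = 0.922, limma). The lowest was exon 5 alone of Epha6 (mmu_circ_0003379), with 51.3, 0 and 25.8 SRPBM in the Control libraries and 0, 17.5 and 0 SRPBM in the TLE libraries, absent from 1 Control library and 2 TLE libraries, at -0.77 (SE 0.63).

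Summed over its 13 circRNAs, Epha5 had 427, 316 and 413 SRPBM in the Control libraries and 455, 421 and 562 SRPBM in the TLE libraries. TLE 1 and TLE 3 lay above all Control libraries and TLE 2 below Control 1. The log2 fold change was 0.30 (SE 0.26, adjusted p = 0.891, limma). Epha6, with 12 circRNAs, had 350.4, 130.2 and 267 SRPBM in the Control libraries and 124, 245 and 242 SRPBM in the TLE libraries. Control 1 was the highest and TLE 1 the lowest library, and the log2 fold change was -0.23 (SE 0.38, adjusted p = 0.917, limma). The 3 shared plans together gave 1008, 521 and 853 SRPBM in the Control libraries and 857, 693 and 969 SRPBM in the TLE libraries.

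Robo1 and Robo2 are receptors for Slit, the repellent of the midline. Robo1 had 5 circRNAs, of which exons 4 to 6 (mmu_circ_0003412, chr16:72933213-72935786, plus strand, 388 bases, codons 181 to 310 of 1612) held 87.4% of the 443 reads of the gene.
Robo1 exons 4 to 6: ctttgacagttcaagATACGAGGAGGAAAA

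It ranked 63rd of all circRNAs, with 504, 502 and 732 SRPBM in the Control libraries and 444, 552 and 718 SRPBM in the TLE libraries. The groups overlapped, with TLE 1 below every Control library, and the log2 fold change was -0.02 (SE 0.25, adjusted p = 0.994, limma). Exons 3 to 6 (mmu_circ_0003410), which end at the same base, had 59.8, 27.9 and 60.3 SRPBM in the Control libraries and 93.0, 70.1 and 60.6 SRPBM in the TLE libraries. The lowest TLE library lay above the highest Control library by less than 1 read, at a log2 fold change of 0.49 (SE 0.46, adjusted p = 0.922, limma), and after rescaling the groups overlapped. As the gene, Robo1 had 660.2 ± 152 SRPBM in Control against 658 ± 121 SRPBM in TLE mice (SD, n = 3 each), a log2 fold change of 0.00 with an SE of 0.25. Robo2 had one main circRNA, exon 2 alone, with 103, 46.5 and 60.3 SRPBM in the Control libraries and 31.0, 96.4 and 60.6 SRPBM in the TLE libraries.

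Ligands and the remaining receptors were sparse. Slit3 and Slit1, secreted ligands of Robo, had 20 and 8 reads, and 4 semaphorins had 23 reads in all. The main Slit3 circRNA, exons 13 and 14 (mmu_circ_0000752), had 25.6, 37.2 and 34.5 SRPBM in the Control libraries and 31.0, 0 and 17.3 SRPBM in the TLE libraries, and its log2 fold change was -0.69 (SE 0.63, adjusted p = 0.922, limma). As the gene, Slit3 had 25.6, 37.2 and 34.5 SRPBM in the Control libraries and 72.3, 0 and 17.3 SRPBM in the TLE libraries, with overlapping groups (-0.40). The leading semaphorin circRNA, exons 6 to 9 of Sema3e (mmu_circ_0007886), had 0, 18.6 and 34.5 SRPBM in the Control libraries and 31.0, 0 and 0 SRPBM in the TLE libraries. Plexins, the semaphorin receptors, gave Plxna2 exons 2 and 3 (mmu_circ_0005166) at 25.6, 0 and 51.7 SRPBM in the Control libraries and 0, 43.8 and 34.6 SRPBM in the TLE libraries. Plxna4 made a circRNA from the same exons, 66.5% identical, with 6 reads, and the Plxnc1 circRNA of exons 2 to 4 (mmu_circ_0000484) had 3 reads. Unc5c, a netrin receptor for repulsion, had 25.6, 55.8 and 68.9 SRPBM in the Control libraries and 31.0, 26.3 and 43.3 SRPBM in the TLE libraries over its 3 circRNAs, with a log2 fold change of -0.36 (SE 0.57, adjusted p = 0.912, limma). In each of these the groups overlapped.

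Beyond the names of their hosts, the circRNAs were compared with the other circRNAs in the build of the genes. Both ends lay on annotated exon boundaries of one transcript in 102 of the 109 (93.6%), against 89.7% of the other 10164 circRNAs with 1 host, and each of the remaining 7 had 1 end on a boundary. The introns beside them were long, with medians of 30018.5 bases before and 24651 bases after the circRNA, against 10139 and 8526 bases for the others. Distances from end to end over 100000 bases occurred in 9 circRNAs (8.26%), against 3.90%. The number of exons (median 4 in both), the summed exon length (median 627 against 609 bases) and the GC content (median 47.7% against 47.4%) were close. These are descriptions of an annotated set, and circRNAs of 1 host share their introns.

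Circles of a single exon made up a larger share here than among the others, in a description without a test. Of the 102 circRNAs placed on exons, 14 (13.7%, 95% Wilson interval 8.36% to 21.7%) held 1 exon, against 352 of 9114 others (3.86%). Apart from the Eph receptors the share was 10 of 67 (14.9%). Among circRNAs above 0 in at least 3 libraries, a limit chosen after seeing the data, the shares were 22.7% and 5.59%. The 14 were exon 3 of Epha3, Epha5 and Epha6, exon 5 of Epha6, exon 2 of Fat1, Fat3, Robo2, Cdh8, Cdh10, Cdh18, Pcdh9 and Pcdh11x, and exon 3 of Fat3 and Pcdh11x. They held 47.8% of the reads of the placed members, or 19.4% without Fat3, against 8.82% among the others. The interval covers counting error only, and circRNAs of paralogs are not independent.

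Most reads came from the early part of the coding sequence. Of the 102, 54 (52.9%) lay wholly before its midpoint, against 43.6% of the others, and these held 82.0% of the member reads against 51.8%. Without Fat3 the share of reads was 72.0%. The start codon was inside 13 (12.7%), against 15.5% of the others. Among hosts with several circRNAs, 71 of 98 circRNAs shared a start or an end with another circRNA of the gene, as the Robo1 circRNAs that end at exon 6 do.

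Genes that work with these receptors were read in the same fit, from 4 lists of ligands and co-receptors, catenins and other cadherin partners, integrin adaptors and kinases, and guidance effectors. Of 176 partner genes, 71 hosted circRNAs, 53 were tested and 2 of these (3.77%) passed the rule, beside the background of 1.9% of all host genes. The medians of the log2 fold changes were 0.07 over 11 ligands and co-receptors, -0.24 over 12 cadherin partners, 0.22 over 6 integrin adaptors and 0.23 over 24 guidance effectors, beside 0.20 over all host genes. The partner past the rule with higher levels in TLE was Ptk2b, the kinase Pyk2, with 0 in all 3 Control libraries and 62.0, 78.9 and 34.6 SRPBM in the TLE libraries. Ptk2b was tested only because all 3 TLE libraries were above 0, so the filter itself favoured a higher TLE level. Its call, which is part of the 3.77%, is therefore not independent of that filter. Its log2 fold change was 2.10 (SE 0.61, adjusted p = 0.728, limma), and the TLE mean was at least 2.21-fold above the value of 3 reads in each Control library. The partner past the rule with lower levels was Arhgap39, a GTPase-activating protein that acts downstream of Robo, with 59.8, 18.6 and 94.7 SRPBM in the Control libraries and 0, 0 and 26.0 SRPBM in the TLE libraries. Its groups overlapped, and the log2 fold change was -1.54 (SE 0.67, adjusted p = 0.766, limma).

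The most abundant partner in each list overlapped between the groups. Among ligands and co-receptors it was Dscam, a netrin receptor, with 410.2, 428 and 457 SRPBM in the Control libraries and 331, 438 and 363 SRPBM in the TLE libraries. Among cadherin partners it was Ctnnd2, delta-catenin, with 521, 409 and 319 SRPBM in the Control libraries and 403, 605 and 692 SRPBM in the TLE libraries. Neither passed the rule. Among integrin adaptors it was Ptk2, the focal adhesion kinase, with 607, 614 and 680.5 SRPBM in the Control libraries and 558, 947 and 805 SRPBM in the TLE libraries. Among guidance effectors it was Sipa1l1, a Rap GTPase-activating protein, with 427, 567 and 422 SRPBM in the Control libraries and 258, 438 and 476 SRPBM in the TLE libraries. These did not pass it either.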

How the data were processed

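Cortical RNA of 3 Control and 3 TLE mice was depleted of rRNA and sequenced as directional libraries, 1 per mouse. The authors identified circRNAs with CIRI on BWA-MEM alignments and deposited SRPBM, a normalized junction signal, per circRNA and library (build mm10, per the labels). The same table was deposited 6 times and was read once. Each value was a whole multiple, within 0.01 step, of 1 read (8.55 to 10.3 SRPBM), and the smallest listed value was 2 reads. Read numbers in the text are these multiples. Intervals and limits of 3 reads cover counting error only.

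SRPBM was tested as log2(SRPBM + 17.1), the smallest value above 0, with limma 3.58.1 in R 4.3.3 (trended variance, two-sided, no covariate), over all circRNAs, or all host genes by summed SRPBM, above 0 in at least 3 libraries. Fold changes are on that scale and understate the change of low circRNAs. P-values were adjusted by Benjamini-Hochberg over all features tested. The limits of the study, which it set on DESeq2 results, were kept for calls on the limma fit, so the calls need not match those of the study. A permutation test of 3 against 3 cannot go below p = 0.1. In simulated data, the rule recovered 74% of 4-fold and 99% of 8-fold circRNA changes, and 81% and 99% of those in hosts. These changes were placed only in features with more reads than most members have, and simulated replicates varied less than the libraries did. Recovery among members with few reads is therefore not known. Ends were matched to GENCODE M21 exons, and 3466 of 3469 host identifiers matched a symbol.

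Members, lists and markers were chosen with earlier results of these data known. Named were the most abundant circRNA of each family, those past the rule, the 5 highest and 5 lowest fold changes of circRNAs and of hosts, hosts with 5 or more circRNAs, circRNAs with groups apart, and partners past the rule or leading a list. Other names were chosen after their values were seen.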

Additional observations from a re-analysis of the deposited data

How the results depend on the processing

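Under no alternative did a member reach an adjusted p under 0.05. The count of member circRNAs past the rule stayed at 1 with a pseudocount of 1 read (3.93% of all circRNAs tested passed) and with no filter (0.636%). It was also 1 with rescaled libraries (1.45%) and with no variance trend (1.38%). A filter of at least 6 reads could not change it, because no listed value is under 2 reads and the same circRNAs were tested. With single libraries left out the count ranged from 0 to 3, beside 2.2% to 2.95% of all circRNAs tested. The count of member hosts was 1 of 28 in place of 0 with a log2 fold change of at least 1 (Pcdh15, background 5.05% of all hosts). It ranged from 0 to 1 when libraries were left out, beside 2.09% to 3.18% of all hosts tested. The Pcdh11x host, at 0.93 over all libraries, passed at 1.52 without Control replicate 2 (2.77% of all hosts). Without Control replicate 3 it was at 0.060. Partner hosts past the rule were 2 of 53, against 5 with a pseudocount of 1 read (3.57% of all hosts passed) and 8 with a log2 fold change of at least 1 (5.05%). They were 6 without Control replicate 1 (2.55%), 4 without Control replicate 2 (2.77%) and 1 without TLE replicate 1 (3.18%), the range over single libraries being 1 to 6. Single-exon circRNAs were 22.7% of members above 0 in at least 3 libraries, and the share of reads from circRNAs before the midpoint of the coding sequence was 72.0% without Fat3; both alternatives were chosen after seeing the data.

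Of 411 alternatives over 33 named fold changes, 395 kept their direction and 16, in 7 results whose log2 fold change was at most 0.44 in size, turned. Many of the 395 could not have turned. Another filter, no variance trend, a replicate block or a lower limit on the fold change leaves a fold change as it was. Ephb2, with 1 circRNA, is counted as a circRNA and again as a host. Of the 33, 10 moved by over 1.5 times with rescaled libraries and 26 with a single library left out, none of them past the rule over all libraries. With libraries rescaled to the same total, Plxna2 mmu_circ_0005166 was at -0.11 and the Robo1 host at -0.22. With single libraries left out, the ranges were -0.20 to 0.15 for Robo1 mmu_circ_0003412, -0.42 to 0.057 for Epha5 mmu_circ_0008310, -0.11 to 0.89 for Unc5c mmu_circ_0006624, -0.52 to 0.61 for Plxna2 mmu_circ_0005166, -1.02 to 0.17 for the Slit3 host, -0.14 to 0.17 for the Robo1 host and -0.60 to 0.070 for the Epha6 host.

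Replicate numbers did not pair the mice: deviations of same-numbered libraries correlated at 0.019, 0.014 and 0.010 over circRNAs, the highest value for each library but not over 0.1. With the replicate number as a block, 1 member circRNA and 0 member hosts passed the rule, as without it, beside 1.57% of all circRNAs and 1.9% of all hosts. Tests on read counts with edgeR and DESeq2 were not run, since the smallest value is 2 reads and recovery of all reads could not be checked. Depth limits most members: 68 of 109 had at most 10 reads. Thinning each library to 32504 reads changed the difference in members detected per library, TLE minus Control, from 1.67 to 0.667. The thinned value also counts circRNAs left with 1 read, which the full libraries never list. At 2 reads or more, thinning left 47, 43 and 44 members in the Control libraries. It left 45, 42 and 40 in the TLE libraries, so the higher mean in TLE was not kept.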
